A study of Mus musculus with 2 samples.

Results

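The Ly6 surface antigens are small proteins held on the outer face of the plasma membrane by a lipid anchor, and leukocytes carry different sets of them. The 7 genes described are Ly6a, Ly6c1, Ly6c2, Ly6i, Ly6e, Ly6g and Ly6d, out of 27998 genes listed in both count matrices. Their UMIs (unique molecules counted) were summed over the cells of each annotated label in each library. The genes were chosen by those UMI sums and their differences between the libraries, so their levels and ratios are descriptions and carry no test. Neither genotype had a second library, so the intervals given are 95% intervals for counting error alone and hold nothing of the spread between mice.

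Several of these proteins are the antigens by which mouse leukocytes are sorted. Ly6C, the product of Ly6c1 and Ly6c2, marks inflammatory monocytes and is also found on memory CD8+ T cells and plasmacytoid dendritic cells, and Ly6G, the product of Ly6g, marks neutrophils. Ly6a encodes Sca-1, a marker of blood stem cells that interferon also induces on lymphocytes and myeloid cells. Ly6e is widely transcribed and interferon-inducible, and Ly6d is carried by early lymphoid cells, B cells and plasmacytoid dendritic cells.

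YUMM1.7 is a melanoma line of the mouse. It was injected under the skin of knock-in mice that carry a human APOE allele, and tumours were taken on day 19. One group carried human APOE4 and the other human APOE2, and no group with mouse APOE was used here. From every mouse 10000 living CD45+ cells were sorted, and the cells of 6 mice per genotype were pooled into 1 library before droplet sequencing of transcript 3′ ends. Differences between single mice therefore cannot be seen.

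The authors' table names 5385 cells of the APOE4 library and 4665 cells of the APOE2 library with 26 labels, and these cells held 36046103 and 38959426 UMIs. Median UMIs per cell were 5560 in APOE4 and 7160 in APOE2. Both libraries had at least 30 cells in 22 labels, and ratios were formed there for a gene with at least 20 UMIs over both libraries. Levels are in CPM, the gene's UMIs scaled to 1000000 UMIs of all genes in the same cells, and are not divided by transcript length. The libraries shared 8 barcodes among the annotated cells. UMIs assigned to mouse Apoe, 87.6 CPM in APOE4 and 158 CPM in APOE2, do not check the genotypes, since the human transcript is not in the mouse reference. The labels come from clustering that could use every gene, the Ly6 genes included.

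All 7 genes lie on chromosome 15 of the mm10 build, within 397 kb, and all are protein-coding in GENCODE M21. From the first to the last they are Ly6d at chr15:74762056-74763620, Ly6e at chr15:74955051-74959905, Ly6i at chr15:74979534-74983430, Ly6a at chr15:74994877-74998031, Ly6c1 at chr15:75044018-75048830, Ly6c2 at chr15:75108158-75111970 and Ly6g at chr15:75155240-75159126. Ly6e and Ly6g run on the plus strand and the other 5 on the minus strand.

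A read that fits 2 genes equally can be lost or split, so the likeness of the transcripts bears on the counts of Ly6c1 and Ly6c2. The coding sequences of Ly6c2 and Ly6c1 were identical at 97.7% of positions, and those of Ly6a and Ly6i at 86.4%. In the last 400 bases of each transcript, where 3′ reads gather, 25.1% of the 50-base windows of Ly6c2 also occurred in a Ly6c1 transcript, and 23.4% of those of Ly6c1 in a Ly6c2 transcript. No such window of Ly6a was found in Ly6i or the reverse, and no other pair of the 7 genes shared one. The last 150 coding bases of both pairs, read from the GENCODE M21 transcripts and lying in 1 exon each, show how much coding sequence tells each pair apart. After them come 3′ untranslated stretches of 380 to 389 bases, so most bases shown lie before the last 400. Capitals mark bases that differ within the pair, 3 in the Ly6c2 and Ly6c1 pair (chr15:75108543-75108692 and chr15:75045402-75045551) and 20 in the Ly6a and Ly6i pair (chr15:74995262-74995411 and chr15:74979914-74980063), all on the minus strand.
Ly6c2: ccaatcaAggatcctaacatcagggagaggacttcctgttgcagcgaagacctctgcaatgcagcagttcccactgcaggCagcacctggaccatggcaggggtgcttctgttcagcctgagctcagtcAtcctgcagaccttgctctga
Ly6c1: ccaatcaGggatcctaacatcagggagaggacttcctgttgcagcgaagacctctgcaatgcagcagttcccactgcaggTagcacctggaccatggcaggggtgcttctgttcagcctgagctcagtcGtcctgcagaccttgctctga
Ly6a: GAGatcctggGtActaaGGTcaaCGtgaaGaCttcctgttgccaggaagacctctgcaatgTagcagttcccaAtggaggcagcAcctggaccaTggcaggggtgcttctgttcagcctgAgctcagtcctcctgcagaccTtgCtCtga
Ly6i: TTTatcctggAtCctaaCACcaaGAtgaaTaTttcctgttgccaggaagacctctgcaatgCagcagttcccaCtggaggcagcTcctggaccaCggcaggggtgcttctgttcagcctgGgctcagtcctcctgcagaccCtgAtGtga

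RefSeq promoter windows of 300 bases on GRCm38, from 250 bases before to 50 after the start, were given for Ly6c1, Ly6c2 and Ly6g. Neither GAAANNGAA, a core letter pattern of interferon response elements, nor TTCNNNGAA, a pattern of STAT sites, was found on either strand of those windows. Of all 32851 windows of that length, 8.56% held the first and 8.30% the second. The windows of Ly6a, Ly6i, Ly6e and Ly6d were not used here.

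Ly6c2 was highest in monocytes, plasmacytoid dendritic cells (pDCs) and NKT cells. Monocytes 2 held 3378 CPM in APOE4 and 1453 in APOE2, and pDCs held 3004 in APOE4 and 1217 in APOE2. NKT cells held 2431 in APOE4 and 1623 in APOE2, so they were the highest label in APOE2, with an interval that overlapped that of Monocytes 2. The lowest of the 22 labels were migratory DCs in APOE4, with 54.8 CPM, and stromal cells in APOE2, with 5.83 CPM. Mast cells, under the 30-cell minimum in APOE4, had 2 UMIs in 24 APOE4 cells and none in 48 APOE2 cells, which allows up to 10.2 CPM (3 counts).

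Ly6c2 was at least 2-fold higher in APOE4 in 18 of the 22 labels, and at least 2-fold lower in 1. Over all genes with at least 20 UMIs and the same 22 labels, 3.92% of gene and label pairs were at least 2-fold higher in APOE4. By label that share ran from 1.92% in Monocytes 2 to 15.3% in M-MDSC 2. The count of members rests on the same sums by which they were picked, so nothing is read from it. The median Ly6c2 ratio over the labels was 4.23, and the ratios ran from 0.445 to 10.8. All 22 intervals left out 1, but the direction in B cells, at a log2 ratio of 0.67, turned to -1.12 without high doublet scores and to -2.11 under 5% mitochondrial UMIs.

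The ratio differed among the monocyte labels. Monocytes 1 held 2274 CPM in APOE4 and 365 in APOE2, a ratio of 6.22 (5.84 to 6.64). Monocytes 2 had a ratio of 2.32 (2.22 to 2.43). Monocytes 3 held 990 CPM in APOE4 and 770 in APOE2, a ratio of 1.28 (1.17 to 1.41), so the 3 monocyte labels stood apart from each other beyond counting error. At 1500 UMIs per cell, a Ly6c2 UMI was found in 70.8% of Monocytes 1 in APOE4 and 23.0% in APOE2, and in 52.6% of Monocytes 3 in APOE4 and 39.8% in APOE2. The mast cell label, low in Ly6c2, had 4.76% in APOE4 and 0% in APOE2 at the same depth.

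Macrophages held less Ly6c2 than monocytes, and Mø cluster 1 had the highest ratio of the 22 labels. Mø cluster 1 held 307 CPM in APOE4 and 28.4 in APOE2, a ratio of 10.8 (9.06 to 12.9). That interval overlapped those of other labels, so the rank is not fixed. Among them were stromal cells at 9.88 (4.75 to 23.8), cDC 1 at 9.46 (5.61 to 16.9) and CD4+ T cells at 9.41 (4.95 to 20.1). Mø cluster 2 held 195 in APOE4 and 31.2 in APOE2, a ratio of 6.26 (5.09 to 7.73). In both Mø clusters Ly6c2 was at or below the Monocytes 3 level in both libraries. In the joined monocyte and macrophage class, 5 of the 6 family members with at least 20 UMIs were at least 2-fold higher in APOE4, beside 3.74% of all genes. One of the 5 was Ly6d, with 54 UMIs in APOE4, 32 of them in 1 cell, and 2 UMIs in APOE2. The class also differed in make-up, with Monocytes 2 at 526 of 1557 cells in APOE4 and 206 of 1734 in APOE2.

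Among dendritic cells, cDC 2 held 376 CPM of Ly6c2 in APOE4 and 59.5 in APOE2, a ratio of 6.32 (5.52 to 7.26). The cDC 1 label rested on 96 UMIs in APOE4 and 17 in APOE2, of which 37 in APOE4 came from 1 cell. Migratory DCs had 65 and 17 UMIs in the same order, and their ratio of 5.75 fell under 2-fold, to a log2 ratio of 0.95, once the cells with the highest doublet scores were left out. The pDC ratio was 2.47 (2.31 to 2.64), with a Ly6c2 UMI in 99.5% of APOE4 cells and 93.7% of APOE2 cells before thinning. Most pDCs had at least 5% mitochondrial UMIs, and over the 40 APOE4 and 10 APOE2 cells below that limit the pDC log2 ratio of Ly6c2 was 0.20. In the DC class, 4 of 5 members were at least 2-fold higher in APOE4, beside 3.88% of all genes. Ly6d, 1 of the 4, had a class ratio of 3.55 and a pDC ratio of 1.48. The class differed in make-up, with pDCs at 205 of 731 cells in APOE4 and 111 of 852 in APOE2.

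The T cell labels differed among themselves in Ly6c2. CD8+ T cells held 1828 CPM in APOE4 and 787 in APOE2, a ratio of 2.32 (2.08 to 2.60), and 73.7% of them had a UMI at 1500 UMIs per cell in APOE4, against 42.3% in APOE2. CD4+ T cells held 105 CPM in APOE4, from 126 UMIs in 37 of 303 cells, and 11.1 CPM in APOE2, from 10 UMIs in 4 of 237 cells. The CD4+ ratio of 9.41 had an interval from 4.95 to 20.1, so its size is loosely fixed. The APOE2 share of CD4+ T cells with a UMI was 1.69% at a median of 3389 UMIs per cell. Mast cells had 0% of 48 cells in APOE2, at a median of 4618, and 2 UMIs in 24 cells in APOE4. These are too few cells to tell the CD4+ share from a floor. NKT cells had a ratio of 1.50 (1.35 to 1.66). In the T cell class, 1 of 5 members was at least 2-fold higher in APOE4, beside 2.58% of all genes.

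The 2 NK labels had Ly6c2 ratios on opposite sides of 1, a difference that was not tested. NK cluster 2 held 159 CPM in APOE4, from 400 UMIs in 89 of 631 cells, and 357 in APOE2, from 394 UMIs in 49 of 214 cells, a ratio of 0.445 (0.386 to 0.513). The share of cells with a UMI was 14.1% in APOE4 and 22.9% in APOE2, at medians of 3817 and 4609 UMIs per cell, and 11.02% in APOE4 and 18.5% in APOE2 at 1500 UMIs per cell. NK cluster 1 held 317 CPM in APOE4 and 143 in APOE2, a ratio of 2.21 (1.50 to 3.37), from 161 UMIs in 20 of 113 cells and 31 UMIs in 6 of 33 cells. Of all genes, 2.01% were at least 2-fold lower in NK cluster 2 and 5.92% at least 2-fold higher in NK cluster 1. In the NK class 2.77% of all genes were at least 2-fold higher, and 0 of 3 members were. The NK cluster 1 ratio fell just under 2-fold in cells under 5% mitochondrial UMIs and without high doublet scores, with log2 ratios of 0.989 and 0.999, and to 0.60 in UMIs per cell. The NK cluster 2 log2 ratio was -0.91 in cells under 5% mitochondrial UMIs.

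**Figure D1:**
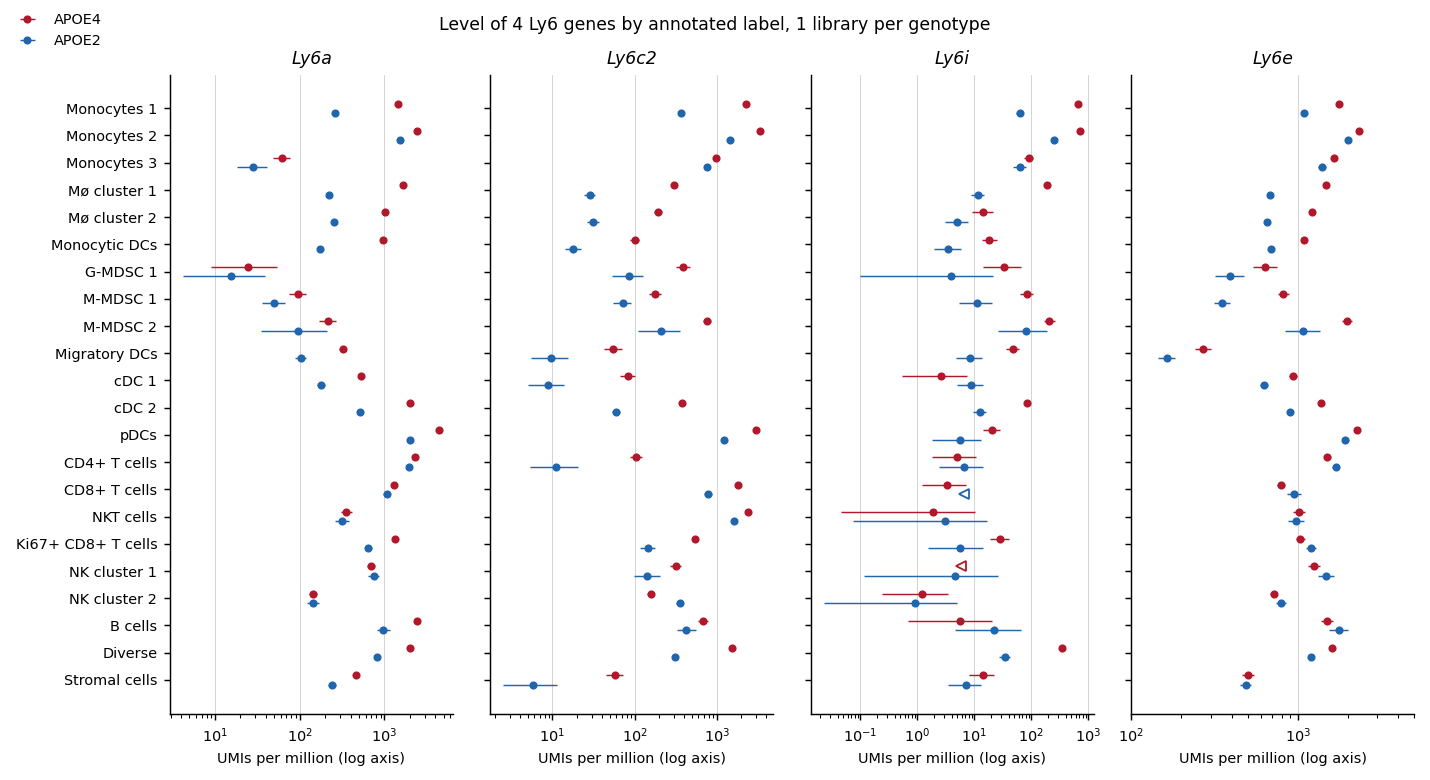
Levels of Ly6a, Ly6c2, Ly6i and Ly6e in CPM (log axis, a scale of its own for each gene) in the 22 labels with at least 30 cells in both libraries, with APOE4 in red above APOE2 in blue. Bars are exact Poisson 95% intervals for counting error, and open triangles mark a count of 0 drawn at the level of 3 counts. In the Ly6c2 panel, a reader should see NK cluster 2 as the label whose blue point lies clearly right of the red one.

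Ly6i, the closest relative of Ly6a among the 7 genes by coding sequence, was read mainly in monocytes. The monocyte and macrophage class held 74.5% of all Ly6i UMIs in APOE4 and 73.7% in APOE2. Monocytes 2 held 720 CPM in APOE4 and 253 in APOE2, and Monocytes 1 held 661 in APOE4 and 63.1 in APOE2. The Monocytes 1 ratio was 10.5 (9.02 to 12.2), against 2.85 (2.57 to 3.17) in Monocytes 2 and 1.42 (1.03 to 1.97) in Monocytes 3, which is the order seen for Ly6c2. Mø cluster 1 had the highest ratio, 16.1 (12.4 to 21.3), from 484 UMIs in APOE4 and 62 in APOE2.

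Ly6i was at least 2-fold higher in APOE4 in 12 of the 15 labels where a ratio was formed. The share of all gene and label pairs over 22 labels was 3.92%, and nothing is read from the Ly6i count. The 1 label at least 2-fold lower was cDC 1, with 3 UMIs in APOE4 and 17 in APOE2, and 15 of those 17 came from 1 cell. Without the cell with the most UMIs in each library, the cDC 1 log2 ratio was 0.75, so that value describes single cells. Most lymphoid labels held few Ly6i UMIs. An exception was Ki67+ CD8+ T cells, with 28 UMIs in 12 of 74 cells in APOE4 and 4 UMIs in 2 of 51 cells in APOE2, a level of 28.7 CPM in APOE4 and 5.66 CPM in APOE2. CD8+ T cells held 6 Ly6i UMIs in APOE4 and none in APOE2, and NK cluster 2 held 3 in APOE4 and 1 in APOE2. In pDCs there were 35 in APOE4 and 5 in APOE2. In Ki67+ CD8+ T cells, 12 neutrophil genes summed to 8958 CPM in APOE4 and 9191 in APOE2. The same genes summed to 144 and 589 in CD8+ T cells. High doublet scores marked 13 of 74 Ki67+ CD8+ T cells in APOE4 and 5 of 51 in APOE2. Which cells of that label carried the Ly6i UMIs was not tested.

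The number of Ly6i UMIs beside those of Ly6c2 varied widely among labels. For every 100 Ly6c2 UMIs, Monocytes 1 held 29.1 Ly6i UMIs in APOE4 and 17.3 in APOE2, and Mø cluster 1 held 60.6 in APOE4 and 40.5 in APOE2. The same figure was 0.686 in APOE4 and 0.461 in APOE2 for pDCs, and 0.183 in APOE4 and 0 in APOE2 for CD8+ T cells. Other labels lay between, with 5.21 in APOE4 and 3.92 in APOE2 for Ki67+ CD8+ T cells and 7.32 in APOE4 and 16.03 in APOE2 for Mø cluster 2. CD4+ T cells had 4.76 in APOE4 and 60 in APOE2, the APOE2 value from 6 Ly6i and 10 Ly6c2 UMIs.

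Ly6a, which encodes Sca-1, was read in lymphoid, dendritic and myeloid labels. pDCs were highest in the APOE4 library, with 4448 CPM, and stood apart from every other label. In the APOE2 library pDCs held 2016 CPM and CD4+ T cells 1953, and their intervals overlapped. In APOE4, Monocytes 2, B cells and CD4+ T cells followed with 2439, 2414 and 2275 CPM, and neighbours in that order overlapped. G-MDSC 1 was lowest of the 22 labels, with 24.8 CPM in APOE4 and 15.4 in APOE2, from 6 and 4 UMIs.

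Ly6a was at least 2-fold higher in APOE4 in 13 of 21 labels and at least 2-fold lower in none. Of all gene and label pairs over 22 labels, 3.92% were at least 2-fold higher, and nothing is read from the Ly6a count. Mø cluster 1 held 1647 CPM in APOE4 and 221 in APOE2, a ratio of 7.46 (6.99 to 7.96), the highest of the 21. Monocytes 1 had a ratio of 5.54 (5.13 to 5.98) and Monocytic DCs one of 5.45 (5.02 to 5.93). Among DCs the ratios were 3.96 in cDC 2, 3.13 in migratory DCs, 3.002 in cDC 1 and 2.21 in pDCs. In B cells the ratio was 2.49 (2.07 to 3.02). The log2 ratio there was only 0.52 without high doublet scores, which removed 9 of 62 APOE4 cells and 2 of 36 APOE2 cells. In that label 4 plasma cell genes summed to 15653 CPM in APOE4 and 2716 in APOE2. Of all its genes with at least 20 UMIs, 12.9% were at least 2-fold higher in APOE4.

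CD4+, CD8+ and NKT cells and both NK labels had Ly6a ratios near 1. The values were 1.16 (1.10 to 1.24) in CD4+ T cells, 1.24 (1.12 to 1.37) in CD8+ T cells, 1.13 (0.883 to 1.44) in NKT cells, 0.932 (0.772 to 1.13) in NK cluster 1 and 0.992 (0.821 to 1.20) in NK cluster 2. CD4+ T cells held 2275 CPM in APOE4 and 1953 in APOE2, so the level there was high in both libraries. The direction in NKT cells is not fixed, since the log2 ratio was 0.17 over all UMIs and -0.37 after thinning. Ki67+ CD8+ T cells had a ratio of 2.05 (1.84 to 2.28), with log2 values between 0.70 and 0.96 in 4 of its 6 alternatives. That label also held neutrophil genes. Its Ly6a level was 1329 CPM in APOE4 and 649 in APOE2. In the same order, M-MDSC 2 held 217 and 96.2, M-MDSC 1 95.2 and 49.9, and G-MDSC 1 24.8 and 15.4. Which cells of the Ki67+ CD8+ T cell label carried the Ly6a UMIs was not tested.

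Monocytes 3 held little Ly6a beside much Ly6c2. Its Ly6a level was 61.3 CPM in APOE4 and 28.1 in APOE2, against Ly6c2 levels of 990 and 770. At 1500 UMIs per cell, 49.8% of Monocytes 3 in APOE4 and 37.9% in APOE2 had a Ly6c2 UMI and none of Ly6a, while 56.3% of Mø cluster 1 in APOE4 and 15.9% in APOE2 had a Ly6a UMI and none of Ly6c2. Cells with both were 50% of Monocytes 1 in APOE4 and 5.57% in APOE2, and 86.2% of pDCs in APOE4 and 57.7% in APOE2.

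Ly6e was the most even of the 4 abundant genes, with a median ratio of 1.26 over 22 labels. Beside 3.92% of all gene and label pairs, it was at least 2-fold higher in APOE4 in 2 labels. Those were M-MDSC 1, with 818 CPM in APOE4 and 351 in APOE2, a ratio of 2.33 (2.03 to 2.67), and Mø cluster 1, with 1476 and 681 in the same order, a ratio of 2.17 (2.07 to 2.27). Monocytes 2 and pDCs were the highest labels in both libraries, with overlapping intervals in each. Monocytes 2 held 2318 CPM in APOE4 and 1998 in APOE2.

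The Ly6e ratio lay above 1 in myeloid and dendritic labels and below 1 in most lymphoid labels. Its interval lay above 1 in 14 labels, all of them myeloid or dendritic apart from the mixed label Diverse. It lay below 1 in 6 labels, all lymphoid: B cells at 0.850, CD4+ T cells at 0.889, CD8+ T cells at 0.837, Ki67+ CD8+ T cells at 0.857, NK cluster 1 at 0.846 and NK cluster 2 at 0.902. NKT cells, at 1.04 (0.907 to 1.20), and stromal cells, at 1.04 (0.928 to 1.16), had intervals that held 1. In mean UMIs per cell, without scaling by the total, the B cell log2 ratio was 0.41.

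**Figure D2:**
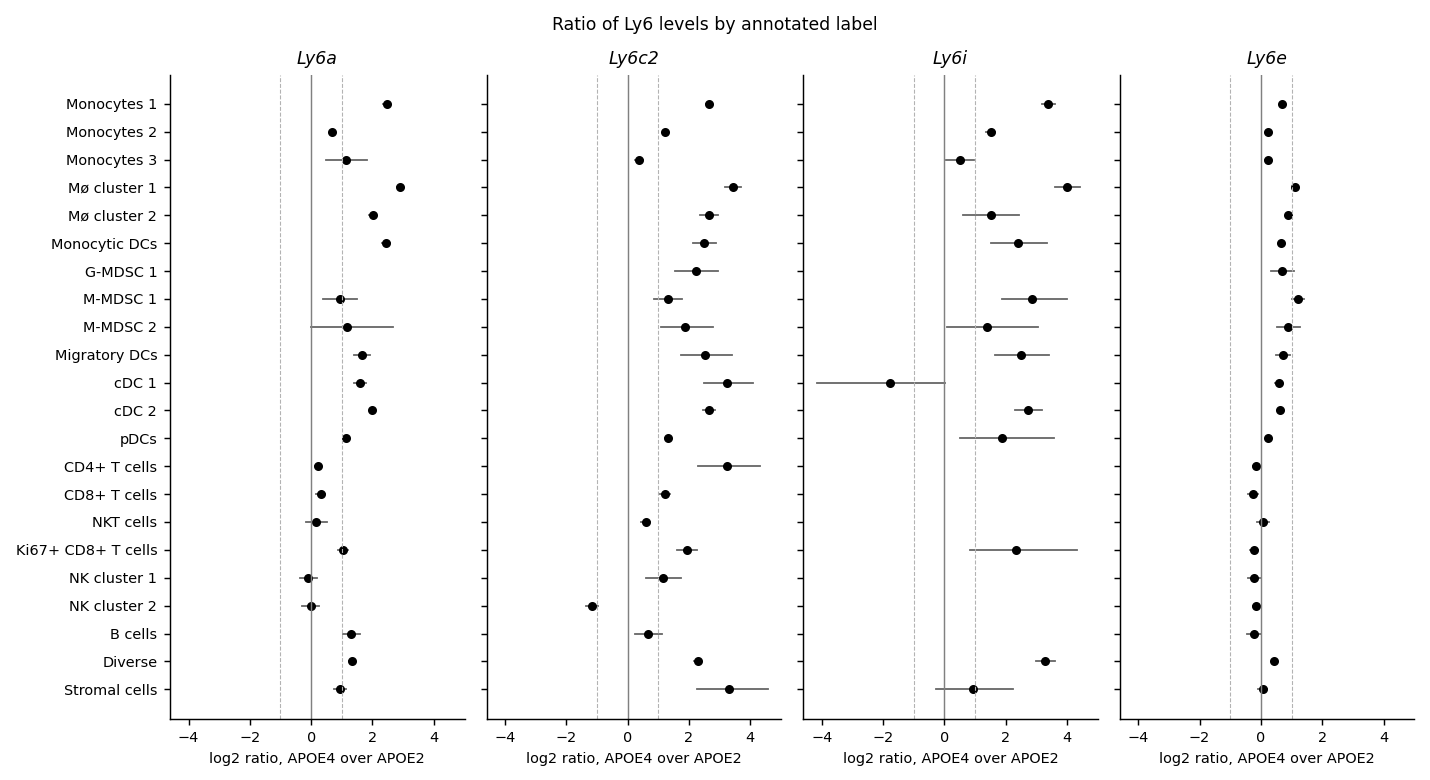
Log2 ratios of Ly6a, Ly6c2, Ly6i and Ly6e levels, APOE4 over APOE2, in each label with enough cells and UMIs, with exact conditional binomial 95% intervals as bars. Dashed lines mark 2-fold in both directions, and a reader should see the Ly6a points of CD4+ T, CD8+ T, NKT and both NK labels close to 0, that of Ki67+ CD8+ T cells at 1.03, Ly6c2 of NK cluster 2 at -1.17 and the narrow range of Ly6e.

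The names M-MDSC and G-MDSC, for monocytic and granulocytic myeloid-derived suppressor cells, come from staining for Ly6C and Ly6G. G-MDSC 2 was the label with most Ly6g, at 936 CPM in APOE4, from 177 UMIs in 28 cells, and 739 in APOE2, from 185 UMIs in 29 cells. G-MDSC 1 held 112 CPM in APOE4 and 177 in APOE2, a ratio of 0.631 (0.377 to 1.04). The 2 M-MDSC labels held 3 and 6 Ly6g UMIs in APOE4 and none in APOE2. A count of 0 allows up to 3.4 CPM in M-MDSC 1 and 48.1 CPM in M-MDSC 2, whose APOE2 cells numbered 36.

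A Ly6g UMI was found in 92.9% of G-MDSC 2 cells in APOE4 and 89.7% in APOE2, at medians of 5623 and 7278 UMIs per cell. G-MDSC 1 had 10.3% in APOE4 and 15.8% in APOE2, at medians near those of M-MDSC 1, which had 0.662% in APOE4 and 0% in APOE2 at medians of 1619 and 1631. CD8+ T cells, which should lack the gene, had 0 of 477 cells in APOE4 and 0 of 113 in APOE2. Over the MDSC class the Ly6g ratio was 0.844 (0.698 to 1.02).

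Ly6c2 levels did not place both M-MDSC labels above both G-MDSC labels. G-MDSC 2 held the most, 1608 CPM in APOE4 and 883 in APOE2, and a UMI was found in every one of its cells. M-MDSC 2 held 762 in APOE4 and 208 in APOE2, G-MDSC 1 held 393 in APOE4 and 84.5 in APOE2, and M-MDSC 1 held 177 in APOE4 and 71.4 in APOE2. M-MDSC 1 was the lowest of the 4 in APOE4, and in APOE2 its interval overlapped that of G-MDSC 1. The ratio was 2.47 (1.83 to 3.38) in M-MDSC 1, 3.66 (2.10 to 6.95) in M-MDSC 2 and 4.65 (2.90 to 7.76) in G-MDSC 1. In the MDSC class, 4 of 5 members were at least 2-fold higher in APOE4, beside 4.82% of all genes. Ly6e, 1 of the 4, had a class ratio of 2.78, against 2.33 in M-MDSC 1, 1.84 in M-MDSC 2 and 1.62 in G-MDSC 1. The class also differed in make-up, with M-MDSC 2 at 190 of 797 cells in APOE4 and 36 of 726 in APOE2.

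Markers of monocytes and neutrophils did not match the M-MDSC names. The 12 neutrophil genes summed to 46268 CPM in APOE4 and 51398 in APOE2 in M-MDSC 1, and the 8 monocyte genes to 1170 and 647 in the same order. In Monocytes 1 the neutrophil genes summed to 1110 in APOE4 and 720 in APOE2, and the monocyte genes to 9612 and 6230. Ccr2, the chemokine receptor of inflammatory monocytes, held 7.51 CPM in M-MDSC 1 in APOE4 and 6.80 in APOE2, against 1193 and 1376 in Monocytes 1. Cxcr2, the chemokine receptor of neutrophils, held 1192 in APOE4 and 848 in APOE2 in M-MDSC 1. These labels are therefore called by the authors' names only. Camp and Ngp, granule genes of immature neutrophils, marked G-MDSC 2, where Camp held 29472 CPM in APOE4 and 29880 in APOE2.

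**Figure D3:**
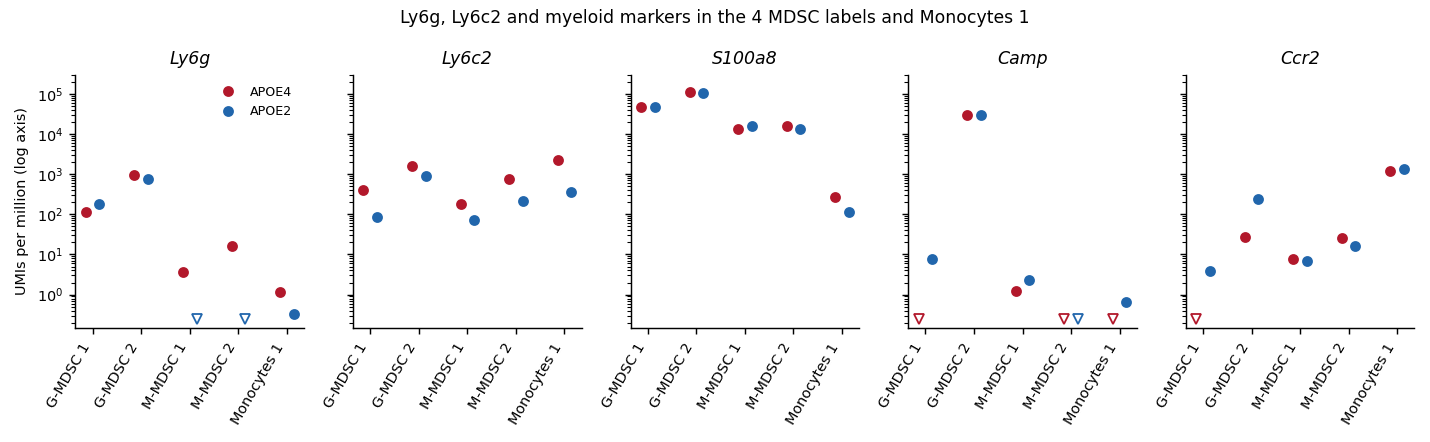
Levels of Ly6g, Ly6c2, S100a8, Camp and Ccr2 in CPM (log axis) in the 4 MDSC labels and Monocytes 1, with APOE4 in red left of APOE2 in blue and open triangles for 0 UMIs. A reader should see Ly6g and Camp highest in G-MDSC 2, S100a8 above 10000 CPM in all 4 MDSC labels and Ccr2 high in Monocytes 1.

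Ly6d was read almost wholly in pDCs and B cells. The DC class held 88.5% of its UMIs in APOE4 and 87.4% in APOE2, and B cells held 9.58% and 12.2% in the same order. pDCs held 2924 CPM in APOE4 and 1978 in APOE2, a ratio of 1.48 (1.40 to 1.56). B cells held 1512 in APOE4, from 62 cells, and 1859 in APOE2, from 36 cells, a ratio of 0.814 (0.699 to 0.95). The B cell log2 ratio was 0.53 after thinning to 1500 UMIs per cell and -0.04 without the cell with the most UMIs in each library, so its direction is not fixed.

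In the 2 other labels with a Ly6d ratio, single cells carried most of the counts. Of 42 UMIs in Mø cluster 2 in APOE4, 32 came from 1 cell, against 1 UMI in APOE2. All 27 UMIs of the APOE4 stromal label came from 1 cell, against 1 UMI in APOE2. The DC class ratio of 3.55 (3.36 to 3.75) was larger than that of pDCs, and pDCs made up 205 of 731 DCs in APOE4 and 111 of 852 in APOE2.

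Ly6c1 was scarce in these CD45+ cells, with 142 UMIs in APOE4 and 103 in APOE2 over all annotated cells. Stromal cells, a label of cells that are not leukocytes, were highest with 37.8 CPM in APOE4 and 43.7 in APOE2, a ratio of 0.865 (0.576 to 1.29). CD4+ T cells followed with 15.8 in APOE4 and 14.5 in APOE2, a ratio of 1.09 (0.511 to 2.40). Ly6c1 and Ly6c2 thus differed in where they were read. For every 100 Ly6c2 UMIs there were 65.7 Ly6c1 UMIs in APOE4 and 750 in APOE2 in stromal cells, but 0.0784 in APOE4 and 0.185 in APOE2 in pDCs, and 0.169 in APOE4 and 0.266 in APOE2 in Monocytes 1. The stromal figure for APOE4 rests on 70 Ly6c2 UMIs, 53 of them in 1 cell. None of the 4 labels with a Ly6c1 ratio was past 2-fold, while the monocyte and macrophage class, with 35 UMIs in APOE4 and 11 in APOE2, had a ratio of 4.20 (2.09 to 9.17). That class mixes labels in other shares in each library. Monocytes 2 held 21 of the 35 UMIs in APOE4 and 5 of the 11 in APOE2. Its own ratio was 1.71 (0.628 to 5.81). Monocytes 1 held 10 UMIs in APOE4, 3.83 CPM, and 3 in APOE2, 0.971 CPM, under the UMI minimum for a ratio. Monocytes 3 held 2 in APOE4 and 1 in APOE2, and each Mø cluster held 1 in both. For every 100 Ly6c2 UMIs, Ly6c1 was 0.160 in APOE4 and 0.217 in APOE2 in Monocytes 2. In Monocytes 3 it was 0.151 and 0.140 in the same order. Neither the part of label shares in the class ratio nor that of Ly6c2 reads was tested.

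Over the whole libraries, both the make-up of the cells and the levels within labels entered the sums. UMIs per cell of Ly6c2 were 7.46 in APOE4 and 1.82 in APOE2, a ratio of 4.10. With the APOE4 level in every label but the APOE2 shares of labels the ratio to the APOE2 library was 3.21, and with the APOE2 levels and the APOE4 shares it was 1.58. For Ly6i the same 3 ratios were 5.99, 5.73 and 1.39, for Ly6a 2.70, 3.01 and 1.20, and for Ly6e 1.28, 1.47 and 1.02. Ly6d had 2.42, 1.58 and 1.58, equal for levels and shares, and Ly6g had 0.845, 0.987 and 0.831. The part of the shares depended on the levels they were weighted with. With APOE4 levels in both libraries, the APOE4 shares gave 0.899 times the value of the APOE2 shares for Ly6a and 0.873 times for Ly6e, below 1, and 1.04 times for Ly6i and 1.27 times for Ly6c2.

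Shares of several labels differed between the libraries. Monocytes 2 made up 9.77% of annotated APOE4 cells and 4.42% of APOE2 cells, CD8+ T cells 8.86% and 2.42%, and pDCs 3.81% and 2.38%. Mø cluster 1, low in Ly6c2, made up 4.55% of APOE4 cells and 10.3% of APOE2 cells. Shares of a single pooled library per genotype carry no error between mice.

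**Figure D4:**
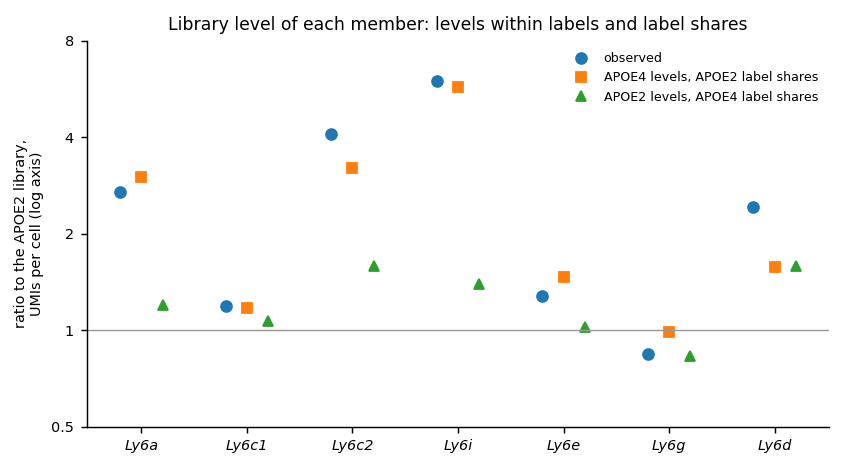
Ratio of UMIs per cell to the APOE2 library (log axis) for each of the 7 genes, as observed (circles), with APOE4 levels within labels and APOE2 label shares (squares), and with APOE2 levels and APOE4 label shares (triangles). A reader should see squares above triangles for Ly6a, Ly6c2, Ly6i and Ly6e, and squares and triangles together at 1.58 for Ly6d.

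Interferon-stimulated genes, a list of 28 such as Isg15, Ifit3 and Irf7, were higher in APOE4 in every one of the 22 labels by their median, with log2 medians from 0.42 in Monocytes 2 to 2.30 in pDCs. The Ly6 ratios beside those medians varied from label to label. In NKT cells the list had a log2 median of 1.18 and Ly6a a log2 ratio of 0.17, and in CD4+ T cells the values were 1.00 and 0.22. In Monocytes 1 they were 1.95 and 2.47, in Mø cluster 1 they were 1.88 and 2.90, and in cDC 2 they were 1.65 and 1.98. NK cluster 2 had a list median of 0.82 beside a Ly6c2 log2 ratio of -1.17, and pDCs one of 2.30 beside a Ly6c2 log2 ratio of 1.30. The median log2 ratio of all genes lay within 0.10 of 0 in every label except M-MDSC 2, where it was 0.17.

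Across labels the Pearson correlation of the list's median with the log2 ratio was 0.53 for Ly6a (21 labels), 0.38 for Ly6c2 (22), 0.26 for Ly6i (15) and 0.38 for Ly6e (22). By rank (Spearman) the values were 0.47, 0.45, 0.39 and 0.36 in the same order. The Ly6i points hold cDC 1 at -1.76, a value that describes single cells, so the order of the 4 genes is not fixed. The points share 2 libraries and their depth, so these are descriptions. The part of the interferon list in the Ly6 ratios was not tested.

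**Figure D5:**
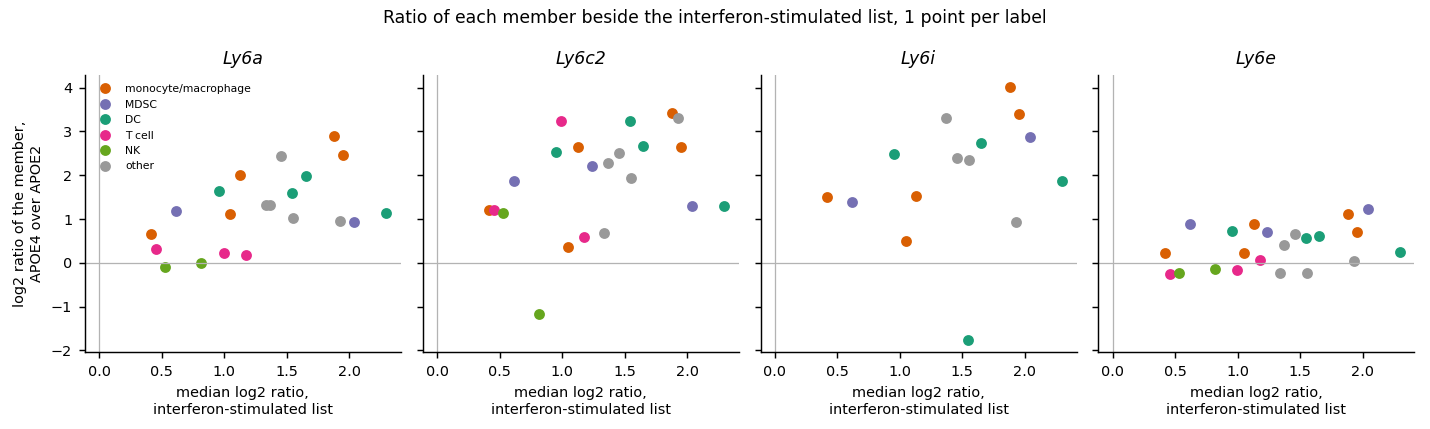
Log2 ratio of each gene (APOE4 over APOE2) against the median log2 ratio of the 28-gene interferon-stimulated list, 1 point per label and coloured by class. A reader should see the points of the T cell and NK classes, which leave out Ki67+ CD8+ T cells, near 0 for Ly6a at list medians between 0.46 and 1.18, and NK cluster 2 below 0 for Ly6c2.

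Other genes of the wider Ly6 and uPAR family were mostly scarce. Of 32 such genes, 28 were found in the matrices, 9 had no UMI in annotated cells and 9 had at least 20 UMIs. Of those 9, 2 were at least 2-fold higher in APOE4 over the whole library and none was at least 2-fold lower, with a median ratio of 1.32. Of all genes, 4.51% were at least 2-fold higher and 4.03% at least 2-fold lower. The 2 genes were Lynx1 and 2010109I03Rik, named here after its values were seen, and 2010109I03Rik had 15 UMIs in APOE4 and 7 in APOE2, with an interval (0.889 to 6.71) that held 1. Plaur, the urokinase receptor and the most abundant of them, had 12684 UMIs in APOE4 and 14696 in APOE2, a ratio of 0.933 (0.911 to 0.955), and was highest in G-MDSC 1. Lynx1, next to Ly6d on the chromosome, had 126 UMIs in APOE4 and 42 in APOE2, a ratio of 3.24 (2.27 to 4.71), and was highest in pDCs. Cd59a, a complement inhibitor, had 105 in APOE4 and 182 in APOE2, a ratio of 0.624 (0.486 to 0.797). Bambi, Ly6k and Ly6g5b had ratios of 1.29, 1.32 and 1.39, and the intervals of Ly6k and Ly6g5b held 1.

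Likeness of pattern was measured as the Pearson correlation of log2(CPM + 10) over 46 combinations of label and library, among 10694 other genes. Ly6c2 was most like Plac8 (0.77), a gene of monocytes and pDCs, and Pik3cd (0.73), and Ly6a most like H2-M3 (0.79) and Bst2 (0.74), an interferon-induced membrane protein. Ly6i was most like Gm7676 (0.84) and Oas1g (0.82), of the interferon-induced oligoadenylate synthetases. Ly6e was most like Sys1 (0.78) and Plac8 (0.78), Ly6g most like Ceacam10 (0.91), Ly6d most like Gm43291 (0.97) and Cacna1e (0.96), and Ly6c1 most like Abi3bp (0.94). Within the family the highest value was that of Ly6c2 with Ly6e, 0.71, whereas Ly6c2 with Ly6i gave 0.48 and Ly6a with Ly6i 0.19.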

How the data were processed

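The labels describe 3′ droplet libraries and the mm10 build. The deposited matrices give unnormalized UMI counts, made with Cell Ranger 3.0.1 per the file headers. The authors' deposited cell table holds labels, UMI counts and the percent of mitochondrial UMIs, and the submitters' processing notes name Seurat 3.0.2. The matrix totals of annotated cells differed from that table's counts by at most 116 UMIs per cell in APOE4 and 241 in APOE2. The treatment of reads on near-identical genes, strand and doublets is not given in the sources used here.

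The members, gene lists and settings were chosen with earlier results of these data known. The authors' 26 labels were used as given. Classes joined Monocytes 1 to 3, both Mø clusters and skin resident Mø; the 4 MDSC labels; cDC 1, cDC 2, migratory DCs and pDCs; CD4+, CD8+ and NKT cells; and both NK clusters. UMIs were summed per label or class and divided by its total. Levels have exact Poisson intervals, shares of cells exact Clopper-Pearson intervals and ratios (APOE4/APOE2) exact conditional binomial intervals, all for counting error only, checked on simulated counts. Shares at equal depth use cells thinned to 1500 UMIs (seed 0), which leaves out 340 APOE4 and 348 APOE2 cells. With 1 library per genotype there is no test and no p-value, and cells are not replicates. Called means past 2-fold.

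Named beside the 7 members are other family genes with at least 100 UMIs and the genes most alike in pattern (at least 200 UMIs). Scrublet's own cutoff marked almost no cell, so only its score was used, as an alternative without the 302 APOE4 and 245 APOE2 cells with the highest scores. Analysis used Python 3.11.15, SciPy 1.17.1, pandas 2.3.3 and scanpy 1.11.5. Positions and transcripts come from GENCODE M21 and promoter windows from RefSeq. The other alternatives were a limit of 5% mitochondrial UMIs, median-of-ratios scaling, UMIs per cell, equal weight per label, joined near-identical genes, all annotated cells, and, chosen after seeing the data, leaving out single cells.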

Additional observations from a re-analysis of the deposited data

Results flagged for a closer look

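Ly6c2 in NK cluster 2 stood out because it went against the other labels. Its log2 ratio was -1.17, with 159 CPM in APOE4 and 357 in APOE2, and -0.91 in cells under 5% mitochondrial UMIs. Ly6c2 was at least 2-fold higher in APOE4 in 18 labels, beside 3.92% of all gene and label pairs. Of all genes, 2.01% were at least 2-fold lower in NK cluster 2. The difference between labels was not tested, since each genotype has 1 library. The 5 cells with the most Ly6c2 in NK cluster 2 held 25.2% of its UMIs in APOE4 and 38.1% in APOE2.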

How the results depend on the processing

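In the class with most of its UMIs, each member's log2 ratio was 2.20 for Ly6a, 2.68 for Ly6c2, 3.21 for Ly6i and 0.99 for Ly6e (monocytes and macrophages), 1.83 for Ly6d (DCs), -0.24 for Ly6g (MDSCs) and -0.21 for Ly6c1 (stromal cells). Values past the counting interval were as follows. Thinned to 1500 UMIs per cell, Ly6a had 2.09, Ly6c2 2.47, Ly6i 2.98 and Ly6e 0.84. Under 5% mitochondrial UMIs, Ly6a had 1.94, Ly6c2 2.38, Ly6i 2.90, Ly6e 0.88 and Ly6d 3.82, with 40 APOE4 and 10 APOE2 pDCs left. With median-of-ratios scaling, Ly6a had 2.26, Ly6c2 2.73, Ly6e 1.05 and Ly6d 1.74. In UMIs per cell, Ly6a had 1.96, Ly6c2 2.43, Ly6i 2.96, Ly6e 0.75 and Ly6d 1.72. With equal weight for every label (0.5 added to each count), Ly6a had 1.83, Ly6c2 2.06, Ly6i 2.18, Ly6e 0.63, Ly6g 0.95 and Ly6d 2.16. Ly6a and Ly6i counted as 1 gene had 2.37, and Ly6c1 with Ly6c2 in stromal cells 0.95. Over all annotated cells, Ly6a had 1.75, Ly6c1 0.58, Ly6c2 2.35, Ly6i 2.90, Ly6e 0.68, Ly6g 0.075 and Ly6d 1.59. The sign of Ly6g and Ly6c1 is therefore not fixed, the Ly6g value with equal weights resting on 0 counts in APOE2 M-MDSCs, and Ly6e lay on either side of 2-fold.

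Within labels, 2 values past 2-fold turned round. Ly6a in M-MDSC 2 had -0.25 after thinning, and Ly6i in cDC 1 had 0.75 without 1 cell per library. Of the values past 2-fold, 49 of 49 remained so in the same direction with median-of-ratios scaling, 47 of 49 in UMIs per cell, 38 of 41 after thinning, 44 of 48 under the mitochondrial limit, 42 of 47 without high doublet scores and 47 of 48 without single cells. Ly6c2 in B cells, 0.67, was -2.11 under the mitochondrial limit, from 5 APOE4 and 4 APOE2 cells, and -1.12 without high doublet scores, and Ly6i in pDCs, 1.88, was 0.29 without high doublet scores. The causes were not tested.

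No paired analysis was possible because each genotype has 1 library. Depth limits Ly6c1, Ly6g outside the MDSC labels and Ly6i in lymphoid cells.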
